A study of Mus musculus with 25 samples.

Results

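The nuclear complex I subunit genes were taken as every gene of the deposited count table whose symbol is Ndufa, Ndufb, Ndufc, Ndufs or Ndufv followed by a number. The rule found 37 genes among the 21720 of the table. All 37 passed the filter on low counts, which left 16515 genes for testing. RNA of the brain cortex was sequenced from 25 male mice aged 6 months, with 5 mice in each of 5 groups. The combination group received (-)-Vestitol, a plant isoflavan, and Salviolone, a plant diterpenoid, at 2.5 mg/kg each. The vestitol group received (-)-Vestitol alone at 5 mg/kg, and the salviolone group received Salviolone alone at 5 mg/kg. The model control group received vehicle. These 20 mice were all of the B6C3 strain and carried the APPswe and PSEN1dE9 transgenes, which encode mutant human amyloid precursor protein and presenilin. The wild type group was of the C57BL/6J strain and received vehicle, so the strain and the transgenes differed together between model control and wild type. All agents were given into the peritoneum once daily for 3 months, and the 5 mice of a group were drawn at random from 8. The promoter that drives the transgenes is not given in the sources used here.

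Complex I is the NADH:ubiquinone oxidoreductase of the inner mitochondrial membrane and the point where electrons of NADH enter the respiratory chain. Its matrix arm oxidises NADH in the N module and hands the electrons to ubiquinone in the Q module, and its membrane arm pumps protons. The catalytic core of the matrix arm is encoded in the nucleus and that of the membrane arm in mitochondrial DNA, while the many accessory subunits, all nuclear, serve assembly and stability. Neurons of the cortex depend heavily on this chain for ATP. By their known positions, 10 of the 37 genes belong to the N module, 6 to the Q module, 9 to the proximal and 11 to the distal part of the membrane arm. The remaining gene, Ndufa4, keeps its old name although its protein is now assigned to complex IV. Of the 36 others, 7 encode core subunits, such as Ndufv1, Ndufs1 and Ndufs7, and 29 accessory subunits.

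Total counts per library ran from 59376320 to 109776852. App was at 3439 CPM (counts scaled to library size) or more in all 20 transgenic mice and at 1800.2 CPM or less in all 5 wild type mice. The cortical identity of the samples was checked with 10 markers of cortical excitatory neurons, whose summed level was 1332 to 1780 CPM in combination, 1974 to 2323 CPM in vestitol, 2172 to 2507 CPM in salviolone, 1835 to 2406 CPM in model control and 1584 to 2225 CPM in wild type mice. The summed level of 11 hypothalamus markers separated the libraries in another way, with 408 to 676 CPM in combination, 77.2 to 133 CPM in vestitol, 80.6 to 94.4 CPM in salviolone and 80.3 to 257 CPM in model control mice. In wild type mice this sum was 106 CPM in mouse 2 and 385 to 603 CPM in the other 4. Of these 11 markers, Avp, Oxt, Hcrt, Pmch and Sim1 had a count of 0 in 3, 6, 8, 6 and 12 of the 25 mice. Summed levels of 7 choroid plexus markers reached 467 and 207 CPM in model control mice 4 and 5 and 220.0 CPM in salviolone mouse 1, and were 71.5 CPM or less in the other mice. In tissue RNA, fewer cells of a type and less RNA per cell cannot be told apart.

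The subunit genes were deeply covered and varied little between mice of a group. Their counts were at least 399 in every mouse, with the lowest for Ndufb1. Within groups, the coefficient of variation of a gene's CPM had a median of 6.23% over the 37 genes, from 3.74% for Ndufb9 to 12.9% for Ndufb1, an accessory subunit of the membrane arm. The same median was 12.2% over all genes tested and 8.76% over the 9691 genes within the CPM range of the members.

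The levels of the genes were compared per kilobase of transcript. The deposited FPKM could not serve for this, because the gene lengths they imply were far from annotated lengths: they exceeded the whole gene for 6 of the 37 genes and ranged from 0.404 times the transcript length for Ndufa10 to 39.1 times for Ndufb8. CPM was therefore divided by the length of the principal GENCODE transcript, which was found for 36 genes but not for Ndufb1. On this scale the genes spanned 15.2-fold around a median of 57.9 CPM per kb. Ndufa4, the subunit now placed in complex IV, was highest at 184 ± 13.9 CPM per kb (SD over 25 mice). Among the highest after it stood the membrane arm subunits Ndufb9 at 137 ± 6.25 CPM per kb and Ndufb8 at 137 CPM per kb.

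At the low end stood Ndufv3, an accessory subunit of the flavin module, at 23.8 CPM per kb, Ndufs4, an accessory subunit needed for a stable N module, at 15.4 CPM per kb, and Ndufc1, a small membrane arm subunit, at 12.1 CPM per kb. Of the 35 neighbouring pairs in this order, 33 overlapped in their ranges over the mice, so the order within the middle of the list is not resolved. The ranges of Ndufv3 and Ndufs4 did not overlap. These levels rest on the principal transcript, of 1582 bases for Ndufv3, 1698 for Ndufs4 and 1249 for Ndufc1. Whether the order holds with other transcripts was not tested. The median level per kb was 46.3 CPM in the N module, 70.6 CPM in the Q module, 61.4 CPM in the proximal and 59.8 CPM in the distal membrane arm. Core subunits had a median of 64.2 CPM per kb and accessory subunits of 54.7 CPM per kb.

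In the deposited FPKM, Ndufa10 was highest at 155 and Ndufs6, a zinc-binding N module subunit, lowest at 2.34. These FPKM do not order the genes by level. Per kb of transcript, Ndufa10 ranked 16 and Ndufs6 ranked 20 of 36 genes. The lengths implied by FPKM were 0.404 times the transcript for Ndufa10 and 22.9 times for Ndufs6. Ndufs6 was at 27.4, 29.9, 31.9, 32.1 and 33.7 CPM in combination mice, at 28.8, 28.8, 29.6, 30.9 and 33.1 CPM in vestitol mice and at 28.9, 29.8, 30.5, 30.8 and 33.5 CPM in salviolone mice. It was at 26.7, 30.4, 31.2, 32.6 and 32.7 CPM in model control mice and at 27.1, 29.4, 30.3, 30.9 and 31.4 CPM in wild type mice. All 5 groups overlapped, and Ndufs6 was called in none of the 7 comparisons.

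**Figure D1:**
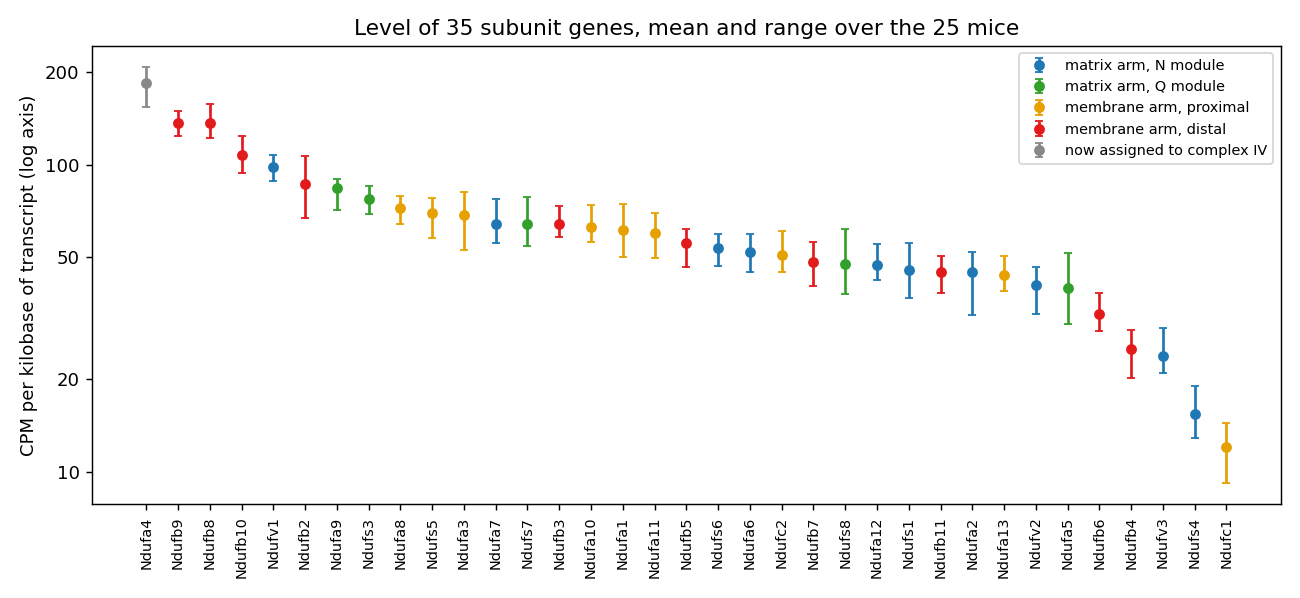
Level in CPM per kilobase of the principal transcript on a log axis, for 35 subunit genes with a transcript length; points are means over the 25 mice, bars run from the lowest to the highest mouse, and colours give the module. Ndufa4 stands at 184 CPM per kb at the left and Ndufc1 at 12.1 CPM per kb at the right, with overlapping bars between most neighbours.

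Promoters of the members were searched because nuclear respiratory factor 1, NRF1, is known as an activator of respiratory chain genes. RefSeq windows of 250 bases before the gene start (GRCm38.p6) were found for 33 of the 37 genes. The NRF1 letters GCGCA, any base and GCGC, read on both strands, stood in 6 of the 33 (18.2%), against 1144 of 27025 genes with a window (4.23%). The 27025 genes were not limited to those that passed the filter on counts. The share among genes expressed like the members was not tested. None of the 9 matches in the members' windows, counted per window, shared a base with another motif searched. The match shown for Ndufa5 lies in overlapping windows of that gene and was counted in each. The 6 stretches are shown because they carry these letters, given in capitals, with up to 25 bases on each side and none beyond the gene start.
Ndufa11, chr17:56717677-56717736, plus strand: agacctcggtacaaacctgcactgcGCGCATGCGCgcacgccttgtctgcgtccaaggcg
Ndufa5, chr6:24527691-24527741, minus strand: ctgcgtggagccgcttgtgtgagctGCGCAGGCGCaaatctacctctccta
Ndufa8, chr2:36049339-36049393, minus strand: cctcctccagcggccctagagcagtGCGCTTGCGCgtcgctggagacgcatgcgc
Ndufb4, chr16:37654369-37654415, minus strand: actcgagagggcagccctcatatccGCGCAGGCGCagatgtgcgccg
Ndufs5, chr4:123718250-123718309, minus strand: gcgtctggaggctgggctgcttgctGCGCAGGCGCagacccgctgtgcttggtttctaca
Ndufs6, chr13:73328483-73328523, minus strand: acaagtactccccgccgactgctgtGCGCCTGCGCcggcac

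The capitals began between 16 and 98 bases before the start in these 6 genes, at 16 bases in Ndufs6 and at 98 bases in Ndufs5. Other motif letters, also read on both strands, were found at shares closer to those of all genes. The SP1 letters GGGCGGG stood in 11 of 33 members (33.3%), against 25.7% of genes, and CCAAT in 10 (30.3%), against 37.5%. The ETS letters CCGGAAG, bound by GABPA, stood in 3 members (9.09%), against 7.83% of genes. The ERR letters AAGGTCA stood in 3 members (9.09%), against 4.7% of genes. The YY1 letters AAGATGGC stood in 0 members, against 1.83% of genes. A match describes the letters of a window and does not show that the factor binds there.

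Averaged over the 37 genes, the mean log2 CPM was 5.63 ± 0.03 in combination, 5.51 ± 0.04 in vestitol, 5.61 ± 0.05 in salviolone, 5.58 ± 0.04 in model control and 5.51 ± 0.04 in wild type mice (SD, n = 5 each). All 5 combination mice, at 5.588 to 5.668, and all 5 salviolone mice, at 5.571 to 5.693, lay above all 5 vestitol mice, at 5.467 to 5.567, and all 5 wild type mice, at 5.460 to 5.554. Model control mice, at 5.514 to 5.608, overlapped with every other group. These averages describe the mice and were not tested.

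**Figure D2:**
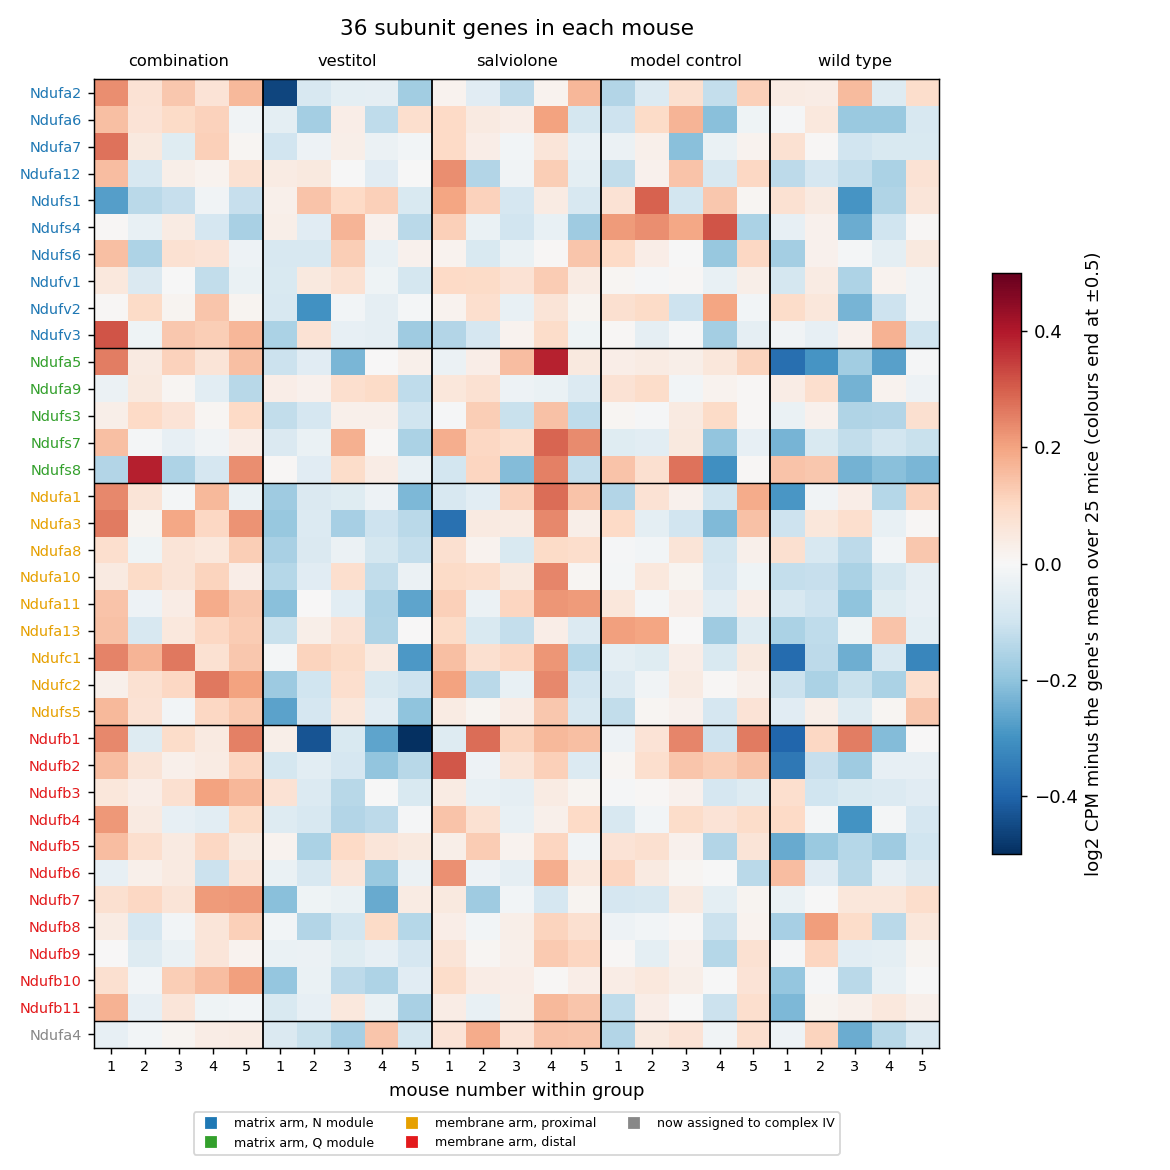
Of the subunit genes, 36 (rows, by module, named in the module's colour) in each of the 25 mice (columns, by group), as log2 CPM minus the gene's mean over all mice; red is higher and blue lower, and colours end at ±0.5. Most rows of the membrane arm are red in combination and salviolone mice and blue in vestitol mice, Ndufs1 is blue in combination mice, and Ndufs4 is red in model control mice 1 to 4.

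Model control against wild type sets B6C3 mice with the transgenes against C57BL/6J mice without them, so effects of strain and transgenes cannot be told apart. Ndufb2, Ndufa5 and Ndufb5, all accessory subunits, were raised, and no subunit gene was lowered. Over all genes tested, 5.37% were raised and 6.21% lowered, and the 3 of 37 members raised are 8.11% of the list. The median log2 fold change of the 37 genes was 0.07, against -0.006 over all genes, and 27 of the 37 were above 0. At an unadjusted p under 0.05, 8 members were higher and 0 lower, against 12.5% and 13.3% of all genes.

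Ndufb2, a subunit of the distal membrane arm (chr6:39569508-39580316 in mm39), was at 39.6, 41.6, 42.8, 43.2 and 43.5 CPM in model control mice and at 30.6, 34.7, 36.3, 38.1 and 38.2 CPM in wild type mice. Every model control mouse lay above every wild type mouse. The log2 fold change was 0.24 ± 0.07 (SE), an increase of 18.4% (adjusted p = 0.0156, edgeR quasi-likelihood test). Ndufa5, a Q module subunit of the matrix arm (chr6:24518665-24528012), was at 35.2, 35.3, 35.5, 35.9 and 37.3 CPM in model control mice and at 26.5, 28.1, 28.6, 30.5 and 34.4 CPM in wild type mice. Its groups did not overlap either. The log2 fold change was 0.27 ± 0.07, or 20.9% (adjusted p = 0.0168, edgeR).

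Ndufb5, another distal membrane arm subunit (chr3:32791139-32805715), was at 54.2, 60.8, 62.7, 62.8 and 63.3 CPM in model control mice and at 50.3, 52.7, 53.0, 54.2 and 55.9 CPM in wild type mice. The groups overlapped through model control mouse 4 alone, which was at wild type level. Its log2 fold change was 0.19 ± 0.05, or 14.1% (adjusted p = 0.0171, edgeR). Ndufs4, the accessory N module subunit whose loss in mice gives a model of Leigh syndrome, missed the threshold at 0.24 ± 0.08 (adjusted p = 0.0511, edgeR). It was at 23.3, 29.7, 30.2, 30.6 and 32.3 CPM in model control mice and at 21.9, 24.2, 25.2, 26.1 and 26.4 CPM in wild type mice, so that 4 of 5 model control mice lay above all wild type mice and mouse 5 lay among them. All 7 core subunit genes had positive fold changes, of 0.04 to 0.14, and none passed the test.

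The 3 calls changed with single mice, as did calls over all genes. Without wild type mouse 1, which was the lowest wild type mouse for all 3 genes, 0 members were raised (adjusted p = 0.0518 to 0.0553, edgeR), and without wild type mouse 2, 5 were. Over all genes, 619 were raised and 729 lowered without wild type mouse 1, and 1420 and 1508 without wild type mouse 2. With all mice these were 887 and 1026. Ndufa5 also missed the threshold without wild type mouse 4 (adjusted p = 0.0523, edgeR), and Ndufb5 without model control mouse 2 (adjusted p = 0.0514, edgeR). Of the hypothalamus markers, 6 of 11 were lowered in model control relative to wild type mice, and of the cortical excitatory neuron markers, 5 of 10 were raised. Of 6 inhibitory neuron markers, 2 were raised and 1 lowered. With the hypothalamus score as a covariate the log2 fold changes were 0.24 for Ndufb2, 0.29 for Ndufa5 and 0.20 for Ndufb5, and none was called. Under this covariate 57 genes of the 16515 were raised and 50 lowered, against 887 and 1026 without it. The part of the cortical and inhibitory neuron markers in the result was not tested.

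**Figure D3:**
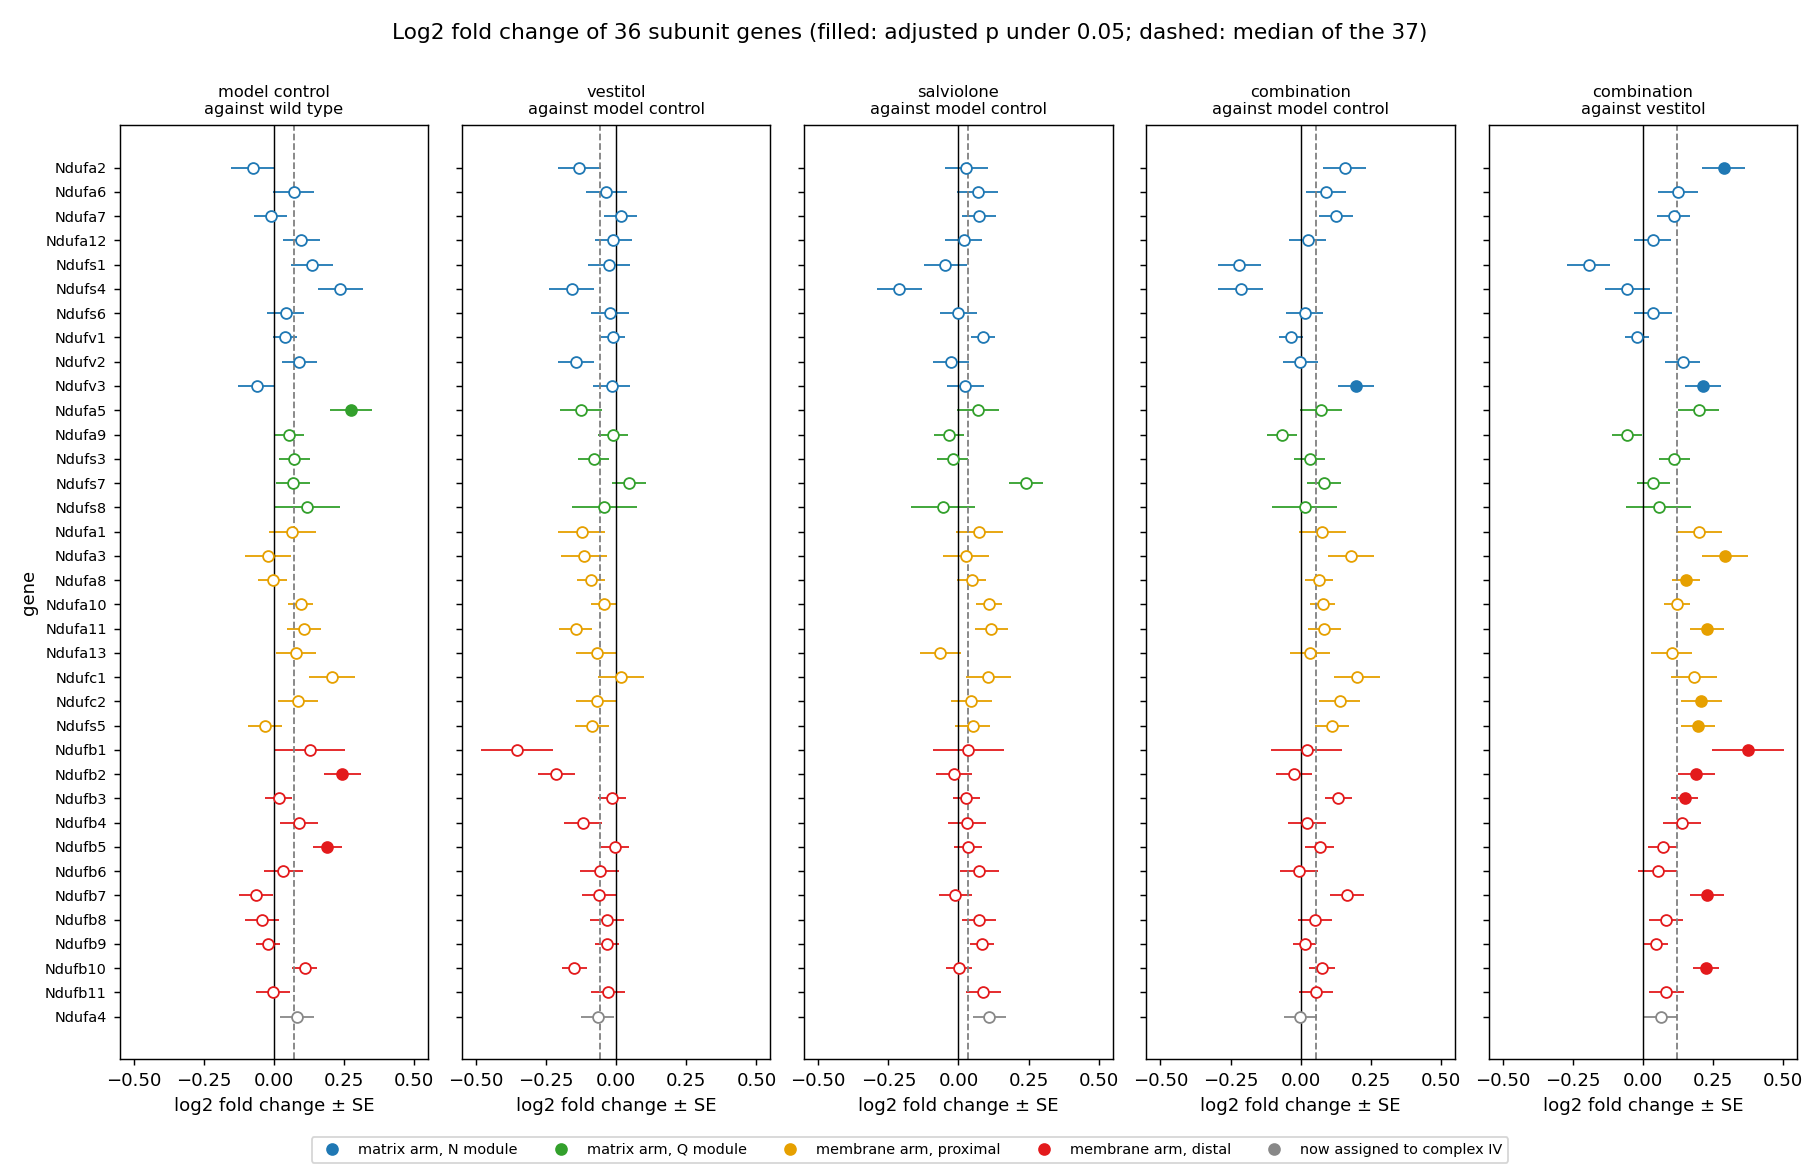
Log2 fold change with its SE for 36 of the 37 genes in 5 comparisons, by module; filled points passed an adjusted p of 0.05 and dashed lines mark the median of the 37 genes. Filled points are 3 in model control against wild type, 0 in vestitol and 0 in salviolone against model control, 1 in combination against model control and 12 in combination against vestitol.

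The comparisons of each treatment with model control share the same 5 model control mice. In vestitol against model control, no subunit gene was called in either direction by edgeR, where 0% of all genes were raised and 0% lowered, nor by DESeq2 or limma-voom. Of all genes, DESeq2 raised 21 and lowered 23 there, while limma-voom raised 0 and lowered 0. At an unadjusted p under 0.05, 0 members were higher and 5 lower (13.5% of the 37), against 3.77% and 3.79% of all genes. Of the 37 log2 fold changes, 34 were negative, with a median of -0.06, against -0.002 over all genes. All 11 genes of the distal membrane arm were below 0, at -0.35 to -0.004.

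The smallest p belonged to Ndufb2, which was at 34.3, 35.7, 36.9, 37 and 37.9 CPM in vestitol mice, against 39.6, 41.6, 42.8, 43.2 and 43.5 CPM in model control mice. The groups did not overlap, at a log2 fold change of -0.21 ± 0.07 (adjusted p = 0.448, edgeR). Ndufb10, a distal subunit with paired disulfide bonds, was at 68.7, 70.7, 71.8, 75.5 and 76.8 CPM in vestitol mice, against 78.4, 80.2, 80.6, 81.5 and 82.3 CPM in model control mice. Here too the groups were apart, at -0.15 ± 0.05 (adjusted p = 0.448, edgeR). Ndufb1, the least counted member, was at 5.25, 6.10, 6.85, 7.80 and 8.38 CPM in vestitol mice, against 7.66, 8.07, 8.63, 9.74 and 9.83 CPM in model control mice. Its groups overlapped and its log2 fold change was -0.35 ± 0.13 (adjusted p = 0.527, edgeR).

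In salviolone against model control, no subunit gene was called by edgeR, with 0% of all genes raised and 0.0242% lowered. At an unadjusted p under 0.05, 2 members were higher and 1 lower, against 5.18% and 6.29% of all genes. The median log2 fold change was 0.04, against -0.002 over all genes. Ndufs7, the core subunit that holds the last iron-sulfur cluster before ubiquinone, was at 51.5, 52.0, 55, 57.1 and 59.4 CPM in salviolone mice, against 42.3, 46.5, 46.7, 47.1 and 50.1 CPM in model control mice. The groups did not overlap, and the log2 fold change was 0.24 ± 0.06, or 18.1% (adjusted p = 0.134, edgeR). DESeq2 called this gene, with an adjusted p of 0.0325, and it was the single member that tool called there, while limma-voom called 0. Of all genes, DESeq2 raised 29 and lowered 80 there, while limma-voom raised 0 and lowered 0.

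Ndufs4 was at 23.0, 24.3, 25.3, 25.4 and 28.2 CPM in salviolone mice, against 23.3, 29.7, 30.2, 30.6 and 32.3 CPM in model control mice. The salviolone mice lay below 4 of the 5 model control mice, at a log2 fold change of -0.21 ± 0.08 (adjusted p = 0.302, edgeR). Ndufa10, an accessory subunit of the proximal membrane arm related to nucleoside kinases, was at 127, 131, 134, 135 and 149.8 CPM in salviolone mice, against 119, 125, 125, 128 and 131 CPM in model control mice. Its groups overlapped, at 0.11 ± 0.05 (adjusted p = 0.359, edgeR).

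In combination against model control, Ndufv3 was raised and no member was lowered, 1 of 37 (2.70%), against 7.83% of all genes raised and 7.13% lowered. The median log2 fold change was 0.06, against 0.004 over all genes, and 28 of 37 were above 0. At an unadjusted p under 0.05, 7 members were higher and 2 lower, against 14.4% and 13.5% of all genes. Ndufv3, an accessory subunit beside the flavin-binding Ndufv1 (chr17:31739089-31750305), was at 36.9, 40.8, 41.2, 42.0 and 46.6 CPM in combination mice, against 33.3, 36.3, 36.3, 37.3 and 37.7 CPM in model control mice. Combination mice 1, 3, 4 and 5 lay above all model control mice. The log2 fold change was 0.20 ± 0.07, or 14.7% (adjusted p = 0.0421, edgeR). The call was lost in 8 of the 10 fits that each left out 1 mouse of these groups, with an adjusted p of up to 0.164 without combination mouse 1.

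Ndufs1, the largest core subunit of the N module, went the other way. It was at 96.7, 107, 108, 108 and 116 CPM in combination mice, against 109.9, 118, 123, 128 and 143 CPM in model control mice. The groups overlapped in part, and the log2 fold change of -0.22 ± 0.08 missed the threshold (adjusted p = 0.0514, edgeR). Ndufs4 stood at -0.21 ± 0.08 (adjusted p = 0.0683, edgeR), with 23.3, 24.5, 25.3, 26.1 and 26.7 CPM in combination mice. Ndufb7, a distal subunit on the side of the intermembrane space, was at 31.3, 31.7, 32.2, 34.7 and 34.8 CPM in combination mice, against 28.3, 28.4, 29.0, 30.2 and 30.9 CPM in model control mice. The groups did not overlap, at 0.17 ± 0.06 (adjusted p = 0.0625, edgeR).

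Markers of other regions moved in the same comparison. In combination relative to model control mice, 9 of 11 hypothalamus markers and 5 of 6 striatum markers were raised, and 7 of 10 cortical excitatory neuron markers were lowered. Of 6 inhibitory neuron markers, 3 were raised and 2 lowered. With the hypothalamus score as a covariate, the log2 fold change of Ndufv3 was 0.20 and its adjusted p 0.686 (edgeR). Of all 16515 genes 0 were called under this covariate (edgeR), against 1293 raised and 1178 lowered without it, so the lost call says nothing particular to Ndufv3. The part of the striatum, cortical and inhibitory neuron markers in the result was not tested.

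The combination was also set against each single compound, at 2.5 mg/kg in the combination and 5 mg/kg alone, so dose and partner differed together. Against vestitol, 12 subunit genes were raised and 0 lowered, 32.4% of the 37, while 11.3% of all genes were raised and 10.6% lowered. All 12 encode accessory subunits: Ndufa3, Ndufa8, Ndufa11, Ndufc2 and Ndufs5 of the proximal and Ndufb1, Ndufb2, Ndufb3, Ndufb7 and Ndufb10 of the distal membrane arm, with Ndufa2 and Ndufv3 of the N module. Thus 5 of 9 proximal and 5 of 11 distal genes were called, against 2 of 10 in the N module and 0 of 6 in the Q module. Whether the modules differ was not tested. The median log2 fold change of the 37 genes was 0.12, against 0.003 over all genes. Over the 29 accessory subunits it was 0.15, and over the 7 core subunits it was 0.04.

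Ndufb10 (chr17:24941034-24943452) was at 77.8, 83.1, 85.4, 87.5 and 90.6 CPM in combination mice, against 68.7, 70.7, 71.8, 75.5 and 76.8 CPM in vestitol mice. The groups did not overlap, and the log2 fold change was 0.22 ± 0.05, or 16.8% (adjusted p = 9.11e-04, edgeR). Ndufa11, a membrane-spanning subunit at the junction to other respiratory complexes (chr17:57024767-57029141), was at 32.1, 33.5, 35.8, 36.0 and 37.1 CPM in combination mice, against 27.2, 28.2, 29.3, 31.5 and 32.7 CPM in vestitol mice. Its groups overlapped through vestitol mouse 2, and the log2 fold change was 0.23 ± 0.06, or 17.2% (adjusted p = 0.00692, edgeR). The other 10 called genes had log2 fold changes from 0.15, for Ndufb3 and Ndufa8, to 0.37, for Ndufb1. Their adjusted p ran from 0.00766, for Ndufb7, to 0.0387, for Ndufc2 (edgeR). Ndufa2, Ndufa3, Ndufa8, Ndufb2 and Ndufb7 were, like Ndufb10, higher in every combination mouse than in every vestitol mouse. Over all 37 genes, 8 were so separated, among them Ndufa5 of the Q module and the core subunit Ndufv2, which were not called. The share of such genes over all genes tested was not counted, so the 8 of 37 cannot be read as a trait of the members. Of the 6 genes with the NRF1 letters shown above, Ndufa11, Ndufa8 and Ndufs5 were among the 12, while Ndufa5, Ndufb4 and Ndufs6 were not called. Whether the letters and the calls go together was not tested.

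None of the 7 core subunit genes was called. Ndufs1 had the lowest log2 fold change of the 37 at -0.19 ± 0.08 (adjusted p = 0.0681, edgeR), and Ndufv1 was also below 0. The number of members called depended on single mice. Without vestitol mouse 5, 6 members were raised and 1 lowered, and 5 of the 12 calls remained. Without combination mouse 5, 6 of the 12 remained, and without combination mouse 1 or 4 or vestitol mouse 1, 7 remained, with no other member called. Ndufb10 and Ndufa11 passed in all 10 such fits, with an adjusted p of at most 0.00567 for Ndufb10 and 0.0289 for Ndufa11 (edgeR). Over all genes, 1588 were raised and 1519 lowered without vestitol mouse 5, and 1498 and 1476 without combination mouse 5. With all mice these were 1860 and 1749. In the same comparison 9 of 11 hypothalamus markers were raised and 9 of 10 cortical excitatory neuron markers lowered. Of 6 striatum markers 3 were raised, and of 6 inhibitory neuron markers 4 were raised and 2 lowered. The part of the striatum, cortical and inhibitory neuron markers in these calls was not tested. With the hypothalamus score as a covariate no member was called, at log2 fold changes of 0.20 for Ndufb10 (adjusted p = 0.43) and 0.18 for Ndufa11 (adjusted p = 0.593, edgeR). Of all 16515 genes 0 were raised and 3 lowered under this covariate, against 1860 and 1749 without it. The summed hypothalamus markers did not overlap between these groups, at 408 to 676 CPM in combination and 77.2 to 133 CPM in vestitol mice, so the loss of all 12 calls says nothing particular to the members.

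**Figure D4:**
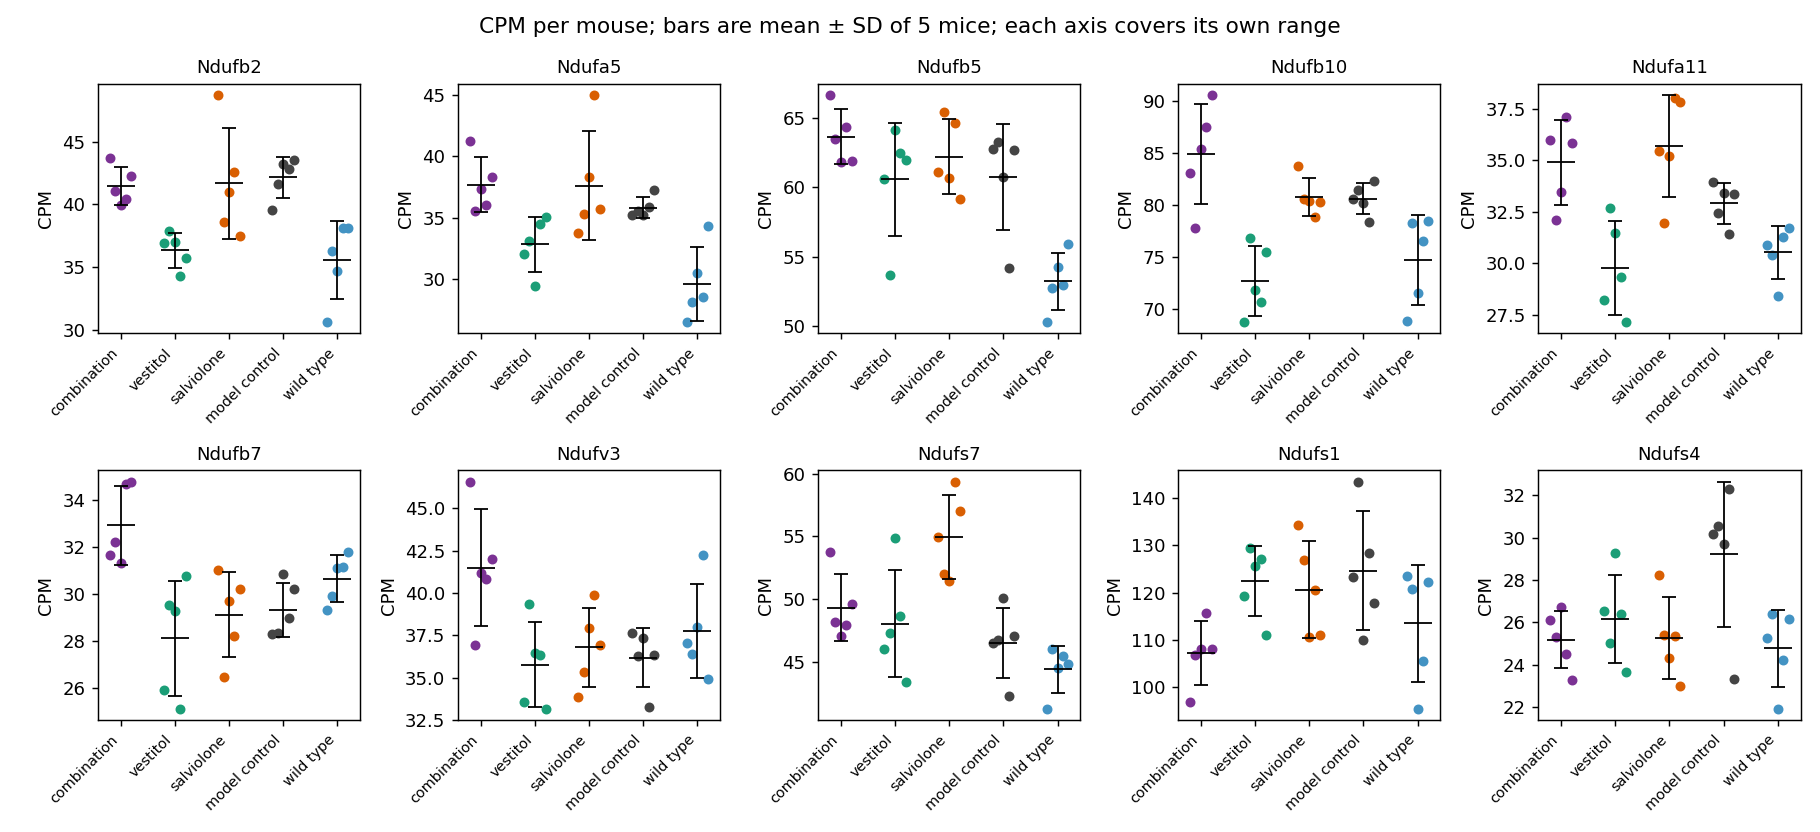
CPM of 10 subunit genes in each mouse, with combination at the left and wild type at the right of each panel; points are mice, horizontal marks are means and bars are SD of 5 mice, and each axis covers its own range without 0. Ndufb2 and Ndufa5 lie lower in wild type than in model control mice, Ndufb10 is lowest in vestitol mice among the transgenic groups, and Ndufs7 is highest in salviolone mice.

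Against salviolone, Ndufb7 was raised in combination mice and no member was lowered, 1 of 37 (2.70%), against 9.66% of all genes raised and 8.23% lowered (17.9% in either direction). Ndufb7 (chr8:84293300-84298255) was at 31.3, 31.7, 32.2, 34.7 and 34.8 CPM in combination mice, against 26.5, 28.2, 29.7, 30.2 and 31 CPM in salviolone mice. The groups did not overlap, and the log2 fold change was 0.18 ± 0.06, or 13% (adjusted p = 0.0413, edgeR). The median over the 37 genes was 0.01. Ndufv1, the core subunit that binds flavin and NADH, was at 150.1, 156, 159.9, 163 and 169.8 CPM in combination mice, against 168, 172, 175, 175 and 178 CPM in salviolone mice. It overlapped through 1 combination mouse and missed the threshold at -0.12 ± 0.04 (adjusted p = 0.0529, edgeR). At an unadjusted p under 0.05, 4 members were lower, among them the core subunits Ndufs1, Ndufs7 and Ndufv1, against 14.3% of all genes. The Ndufb7 call was lost in 6 of the 10 fits that each left out 1 mouse of these groups, with an adjusted p of up to 0.117 without salviolone mouse 2. With the hypothalamus score as a covariate its log2 fold change was 0.09 (adjusted p = 0.83, edgeR), while 20 of all 16515 genes were raised and 0 lowered, against 1595 and 1359 without it. In this comparison 8 of 11 hypothalamus markers were raised and all 10 cortical excitatory neuron markers lowered. Of 6 striatum markers 5 were raised, and of 6 inhibitory neuron markers 4 were raised and 2 lowered. The part of the striatum, cortical and inhibitory neuron markers in the result was not tested.

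The single compounds were given at an equal dose of 5 mg/kg and can be compared directly. In vestitol against salviolone, Ndufa11 was lowered and no member was raised, 1 of 37 (2.70%), against 0.0908% of all genes lowered and 0.593% raised (0.684% in either direction). Ndufa11 was at 27.2, 28.2, 29.3, 31.5 and 32.7 CPM in vestitol mice, against 32.0, 35.2, 35.5, 37.8 and 38.0 CPM in salviolone mice. The groups overlapped through vestitol mouse 2 and salviolone mouse 2, and the log2 fold change was -0.26 ± 0.06, or -16.6% (adjusted p = 0.0352, edgeR). Of the 37 log2 fold changes, 33 were negative, with a median of -0.12, against -0.002 over all genes. At an unadjusted p under 0.05, 15 members (40.5%) were lower and 0 higher, against 5.04% and 6.67% of all genes. Ndufb10 was nearest to a second call, at -0.15 ± 0.05 with groups that did not overlap (adjusted p = 0.142, edgeR). The Ndufa11 call was lost in 6 of the 10 fits that each left out 1 mouse of these groups, with an adjusted p of up to 0.135. Neither hypothalamus nor cortical excitatory neuron markers were called in this comparison (0 of 11 and 0 of 10). The vestitol mice are shared with the comparison of combination and vestitol.

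The 7 complex I genes of mitochondrial DNA, which encode the core of the membrane arm, were measured in the same libraries. Their mean log2 CPM was 7.36 ± 0.14 in combination, 7.99 ± 0.13 in vestitol, 7.25 ± 0.18 in salviolone, 7.65 ± 0.26 in model control and 7.86 ± 0.09 in wild type mice (SD, n = 5 each). All 7 were raised in vestitol against salviolone, where 0.593% of all genes were raised. The median log2 fold change of the 7 was 0.77, while the median of the nuclear genes was -0.12. All 7 were lowered in combination against vestitol, against 10.6% of all genes, at a median of -0.64, where 12 nuclear genes were raised. Mt-Nd5, the largest of them, was at 630.1 ± 58.0 CPM in combination and 1007 ± 89.2 CPM in vestitol mice, a log2 fold change of -0.68 ± 0.10 (adjusted p = 6.77e-05, edgeR). In combination against model control mt-Nd1, mt-Nd2 and mt-Nd5 were lowered, against 7.13% of all genes, and the median of the 7 was -0.27. None of the 7 was called in the other 4 comparisons. Removing all mitochondrially encoded genes before scaling left the same 12 nuclear genes called in combination against vestitol.

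**Figure D5:**
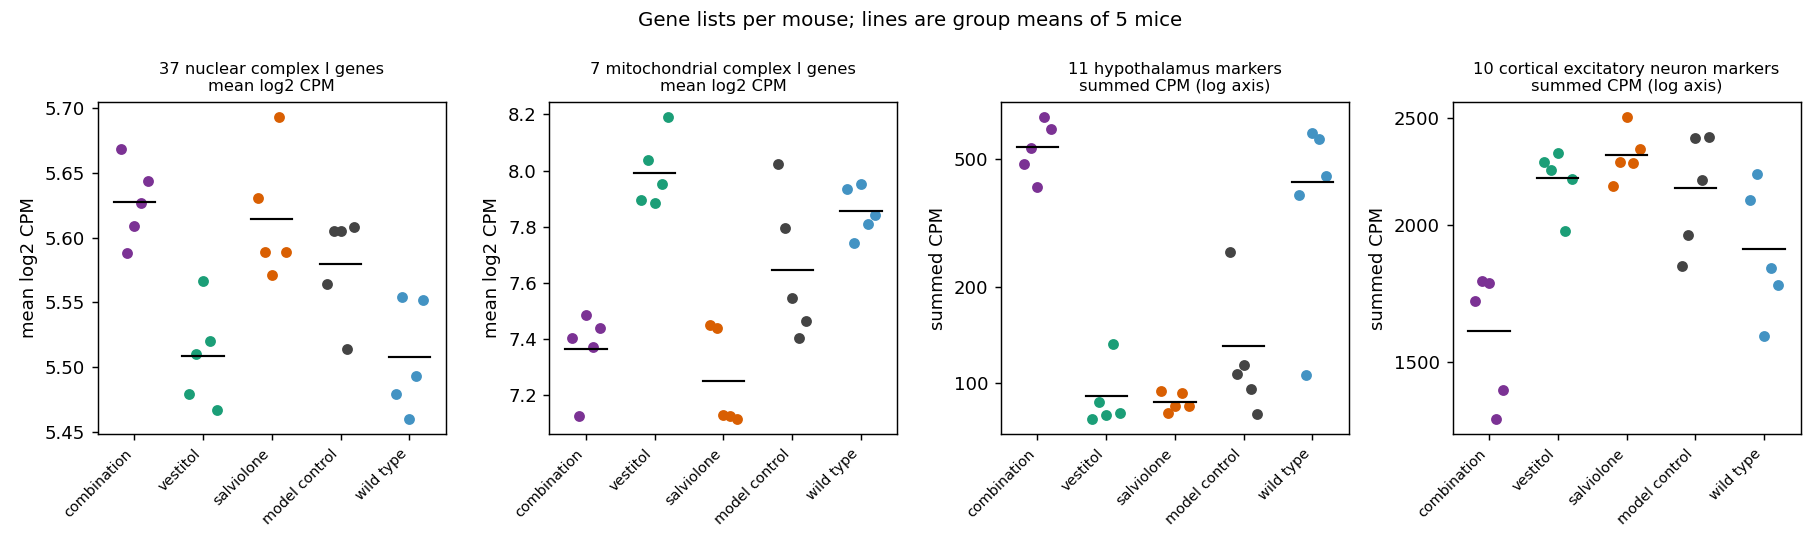
Lists of genes in each mouse, with combination at the left and wild type at the right: mean log2 CPM of the 37 nuclear and the 7 mitochondrially encoded complex I genes, and summed CPM on log axes of 11 hypothalamus and 10 cortical excitatory neuron markers; lines are group means of 5 mice. Vestitol mice lie low for the nuclear genes (5.47 to 5.57) and high for the mitochondrially encoded genes (7.88 to 8.19), and combination mice lie high for the hypothalamus markers (408 to 676 CPM).

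Of 20 assembly factors, which build complex I but do not stay in it, 19 were in the table. In model control against wild type, Ndufaf4 and Acad9 were raised and Foxred1 was lowered, at -0.29 ± 0.07 (adjusted p = 0.00597, edgeR). That is 2 of 19 raised and 1 of 19 lowered, against 5.37% of all genes raised and 6.21% lowered. Foxred1 was at 34.2 ± 2.66 CPM in model control and 41.8 ± 1.66 CPM in wild type mice. In combination against model control Foxred1 was raised, at 0.19 ± 0.07 (adjusted p = 0.0458, edgeR). That is 1 of 19 raised and 0 lowered, against 7.83% of all genes raised and 7.13% lowered. No assembly factor was called in the other 5 comparisons.

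Genes of the other respiratory complexes were counted in the same fits. In model control against wild type, 0 of 4 genes of complex II, 1 of 9 nuclear genes of complex III (Uqcrh), 0 of 10 of complex IV and 3 of 15 of complex V (Atp5pb, Atp5j and Atp5o) were raised, and none was lowered, against 5.37% of all genes raised and 6.21% lowered. Their median log2 fold changes were 0.001, 0.06, 0.09 and 0.08. In combination against vestitol, 2 genes of complex II, 1 of complex III, 2 of complex IV and 7 of complex V were raised, and Uqcrb of complex III was lowered, against 11.3% of all genes raised and 10.6% lowered. Atp5l, a membrane subunit of the ATP synthase, was at 116 ± 3.95 CPM in combination and 95.3 ± 2.12 CPM in vestitol mice, at 0.28 ± 0.04 (adjusted p = 3.67e-05, edgeR). In combination against model control Sdhb, the iron-sulfur subunit of complex II, and Atp5g2 and Atp5l of complex V were raised. Of all genes, 7.83% were raised there. In vestitol against model control and in salviolone against model control, no gene of these lists was called. In vestitol against salviolone Uqcrc1, Uqcrh and Cox6b1 were lowered and Uqcrb was raised, against 0.0908% of all genes lowered and 0.593% raised. In combination against salviolone Uqcrc1 and Cox6a1 were lowered and Atp5l was raised, against 8.23% of all genes lowered and 9.66% raised.

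Of 9 regulators of mitochondrial biogenesis, Esrra, a nuclear receptor that drives oxidative genes, and Tfb2m, a mitochondrial transcription factor, were raised in model control against wild type, and none was lowered. Over all genes, 5.37% were raised and 6.21% lowered there. Esrra was at 52.4 ± 4.81 CPM in model control and 40.1 ± 5.09 CPM in wild type mice, at 0.39 ± 0.08 (adjusted p = 0.00308, edgeR). Ppargc1a, the coactivator PGC-1alpha, was lowered in combination against model control, at 45.7 ± 4.09 CPM in combination and 54.7 ± 6.87 CPM in model control mice. Its log2 fold change was -0.26 ± 0.08 (adjusted p = 0.0321, edgeR). It was the 1 regulator of 9 lowered there, against 7.13% of all genes. It was lowered too in combination against vestitol, at -0.30 ± 0.08 (adjusted p = 0.00853), and in combination against salviolone, at -0.28 ± 0.08 (adjusted p = 0.0162, edgeR). Of all genes, 10.6% and 8.23% were lowered in these comparisons. No regulator was called in the remaining 3 comparisons.

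Some counts may hold reads of other genes. In the deposited positions 14 of the 37 genes overlap another gene of the table, among them Ndufb2 with Braf, at a mean of 186 CPM, Ndufb5 with Mrpl47, Ndufa11 with Vmac, Ndufb1 with Cpsf2, and Ndufs1 with Eef1b2, at 112 CPM. The strand setting of the counting is not given in the sources used here, so reads of such pairs may not have been told apart. Named copies exist for Ndufa11, Ndufa12, Ndufb4, Ndufb11, Ndufs5 and Ndufs6, and their values are uncertain where reads could be shared.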

How the data were processed

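Cortex RNA of 25 mice was sequenced, 5 per group, with groups taken from the labels. Reads were trimmed with Trim Galore and aligned with STAR to mm39, per the submitters' processing notes. No source used here gives versions, an annotation, a counting tool or a strand setting. The deposited tables hold raw read counts per gene, with gene positions, and FPKM of the same libraries, both made by the authors, and 0 sample columns were left unused. The gene lengths implied by the deposited FPKM had a Pearson correlation of 0.143 with annotated transcript lengths across 13621 genes, on a log2 scale. Genes are not independent replicates. FPKM therefore did not serve to compare levels between genes, and its highest and lowest values only picked members to name.

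Counts were filtered with edgeR's filterByExpr (minimum count 10), scaled by TMM (factors 0.980 to 1.04) and tested in 1 fit over all 25 mice with edgeR 4.0.16 (R 4.3.3), using robust quasi-likelihood fits and two-sided F tests. Adjustment was by Benjamini-Hochberg over the 16515 genes of each of 7 comparisons, with calls at an adjusted p under 0.05. CPM use TMM-scaled library sizes, and SE is the log2 fold change over the square root of F. List scores are means of log2 CPM with a prior count of 2. The test was also run on simulated counts with known changes, set in the model control group alone. Those counts held no differences in brain region between libraries and cannot speak to them, and no result above rests on that run. Alternatives were RLE factors, other filters, DESeq2 1.42.0, limma-voom and limma (3.58.1) on log2 FPKM, fewer groups in the fit, a block for mouse number, a covariate for hypothalamus markers, removal of mitochondrially encoded genes, counts divided by 4, and leaving out each mouse. The division was tried because, of counts from 4 to 39, 44.3% were multiples of 4.

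Levels between genes are CPM per kilobase of the GENCODE M21 principal transcript. Promoters came from RefSeq (GRCm38.p6) by gene symbol, without coordinates of the deposited files.

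The members, the modules and all other gene lists were chosen with earlier results of these data known, so no test over a list was made and p values are for single genes over all genes tested. Named with the values of every mouse were members called against model control or wild type (otherwise the 3 with the smallest p), those with the highest and lowest FPKM, and the 2 with the smallest p in each comparison between treatments. Some genes that the rule or the lists hold are not reported here. Values of Ndufs4 in all groups were added after they were seen, as were the names of the other called genes. Replicates are separate mice per the labels. Same-numbered mice of different groups did not deviate together, with correlations of -0.092 to 0.091, so the numbers were not used as pairs.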

Additional observations from a re-analysis of the deposited data

Results flagged for a closer look

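In groups of 5 mice, 4 of 100 sets of CPM values, over 20 genes, had a mouse far from the other 4 by Dixon's criterion, and 0 of 10 sets of list scores had one. Chance gives about 1 in 20 such sets. Ndufb5 was at 54.2 CPM in model control mouse 4, against 60.8 to 63.3 CPM in the other model control mice. Ndufs4 was at 23.3 CPM in model control mouse 5, against 29.7 to 32.3 CPM in the others. These 2 mice also had the highest summed choroid plexus markers of the group, at 467 and 207 CPM, and the part of those markers in the values was not tested. Ndufb3 was at 51.7 CPM in wild type mouse 1, against 45.5 to 46.9 CPM in the others, and Ndufc2 was at 36.6 CPM in wild type mouse 5, against 31 to 32.1 CPM.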

How the results depend on the processing

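No fold change of a named member changed sign in any alternative, while the median of the 37 genes in combination against salviolone, 0.01, ran from -0.02 to 0.03 when single mice were left out. Fits of only the groups compared raised 0 members in model control against wild type (adjusted p = 0.0637 to 0.0889, edgeR) and 0 in combination against model control, and called 0 in vestitol against salviolone. Over all genes these fits raised 159 and lowered 190, 1298 and 1153, and 37 and 4 in these comparisons, in this order. The main fit gave 887 and 1026, 1293 and 1178, and 98 and 15. The hypothalamus covariate left 0 raised in model control against wild type and in combination against model control, and 0 called in combination against vestitol and against salviolone (median 0.048 there). Over all 16515 genes it left 57 raised and 50 lowered, 0 and 0, 0 and 3, and 20 and 0 in these 4 comparisons, so calls were lost across the table. The replicate block gave 0 raised and 1 lowered in combination against model control and 0 called in vestitol against salviolone, and 11 called in combination against vestitol. Of 35 pairs of same-numbered mice, 6 correlated best with their own number. In combination against model control, limma-voom and each of the 3 fits to FPKM raised 3 members. In the same comparison 1 was lowered, Ndufs1, with RLE factors, a 1 CPM filter, limma-voom or counts divided by 4, and 2 with DESeq2. DESeq2 raised 1 in salviolone against model control, where it raised 29 and lowered 80 of all genes. Called in combination against salviolone were 2 with RLE factors, the 1 CPM filter, FPKM or counts divided by 4, and 3 with DESeq2. Without wild type mouse 3 and model control mice 4 and 5 together, chosen after seeing the data, 1 was raised in model control against wild type, and 0 raised and 1 lowered in combination against model control. Leaving out each mouse of the groups compared gave 0 to 5 raised in model control against wild type and 0 to 1 raised and 0 to 1 lowered in combination against model control. It gave 6 to 11 called in combination against vestitol, 0 to 3 in combination against salviolone and 0 to 1 in vestitol against salviolone. Over all genes, it gave 438 to 1420 raised and 516 to 1508 lowered in model control against wild type. The cause of these shifts was not tested. With 5 mice a group and a median SE of 0.06 on the log2 scale, single-gene changes smaller than those called, or as large, could go unseen. In vestitol against model control, Ndufb1 was not called at a log2 fold change of -0.35.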
